A study of Mus musculus with 18 samples.

Results

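The RNA of 9 genes that encode secreted proteins of the liver was followed in 18 libraries of liver, epididymal white adipose tissue (eWAT) and quadriceps muscle of mice on a control or a high-salt diet. The genes were chosen by name, with earlier results of these data known, and all 9 were found once among the 21899 genes of the deposited table. They fall into 4 groups: *Tsku* and *Kcp* (secreted modulators of growth factor signalling), *Fgf21* and *Gdf15* (stress-responsive endocrine factors), *Angptl4*, *Angptl6* and *Angptl8* (angiopoietin-like proteins), and *Ahsg* and *Fetub* (fetuin-A and fetuin-B). The comparison between diets asked whether a high-salt intake was accompanied by a different level of these RNAs in any of the 3 tissues.

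Hepatokines are proteins that the liver releases into blood and that act on other organs, such as adipose tissue, muscle, pancreas and brain. *Fgf21* is induced in liver by fasting and amino acid shortage, and its product acts on target cells through a receptor with the cofactor encoded by *Klb*. The product of *Gdf15* acts on the hindbrain receptor encoded by *Gfral*. *Angptl4* and *Angptl8* take part in the control of lipoprotein lipase, which takes fatty acids from circulating triglycerides, with *Angptl4* induced by fasting and fatty acids and *Angptl8* by feeding and insulin. Fetuins are abundant hepatocyte plasma proteins, of which fetuin-A inhibits insulin receptor signalling and soft tissue calcification and fetuin-B is known for its role in egg fertilization.

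The mice were male, wild type, of the C57BL/6 strain and 18 weeks old. The HSD group had a diet with 8% NaCl and drank 0.9% saline for 12 weeks, while the CON group had normal chow and tap water. Each tissue has 3 CON and 3 HSD libraries, and each library is a sample of a mouse. Liver libraries are CON14L, CON16L, CON72L, HS2L, HS4L and HS5L, with W and M as the last letter for eWAT and muscle. CON16L, HS5L and the eWAT library HS5W are deposited but are not in the tables of the study, so liver and eWAT values are also given without them. Values are FPKM, fragments scaled to exon length and to the depth of the library, and differences are log2 differences of FPKM + 0.5 fitted by limma across the whole table, leaving out genes whose mean was under 0.5 FPKM. A gene was called where its log2 difference was 1 or more in either direction and its p, adjusted by the Benjamini-Hochberg method, was under 0.05. An exact permutation test of 3 libraries against 3 cannot give a p below 0.1, so only the fit across all genes was used for tests.

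Libraries held 7628071 to 16637489 fragments. Several libraries stood apart in ways that touch these genes. The share of fragments on mitochondrially encoded genes in liver was 60.8% in CON14L, 25.7% in CON16L, 37.8% in CON72L, 16.3% in HS2L, 15.4% in HS4L and 44.4% in HS5L. The 20 hepatocyte markers, such as *Alb*, summed to 25890 FPKM in CON14L and 56919 in HS5L, against 92154 to 129564 in the other liver libraries. CON16L held skeletal muscle markers at 4948 FPKM against 2.63 to 7.12 in the other liver libraries, and blood cell markers at 5626 against 237 to 842. HS3W held epididymal epithelium markers at 19534 FPKM against 1.34 to 12.2 in the other eWAT libraries, with adipocyte markers at 10289.7 against 27059 to 32758. CON16W held blood cell markers at 5667 FPKM against 243 to 744. In bulk tissue, fewer cells of a type and less RNA per cell cannot be told apart.

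All 9 genes lie on GRCm38 (mm10) chromosomes, and 4 of them share their span with another annotated gene. *Angptl8* (ENSMUSG00000047822, chr9:21835510-21837347, plus strand) lies wholly within *Dock6*, which runs on the minus strand, and *Ahsg* (ENSMUSG00000022868, chr16:22891277-22899449, plus strand) overlaps the antisense transcript *Gm30505*. *Kcp* (ENSMUSG00000059022, chr6:29473162-29507952, minus strand) overlaps 3 genes at its ends and in its span, and *Angptl6* (ENSMUSG00000038742, chr9:20873808-20879727, minus strand) overlaps *A230050P20Rik*, which runs the other way. The libraries were stranded, but whether fragments were counted by strand is not given in the sources used here, so these 4 genes may hold fragments of their partners. *Dock6* measured 2.49 to 10.1 FPKM in liver, where *Angptl8* was at 272 FPKM or more, and 11.4 to 22.3 in eWAT, where *Angptl8* ranged from 3.38 to 33.2. *A230050P20Rik* measured 18.2 to 81.7 FPKM in liver, where *Angptl6* did not exceed 5.60.

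*Tsku* (ENSMUSG00000049580, chr7:98350668-98361328, minus strand), *Fgf21* (ENSMUSG00000030827, chr7:45613886-45615490, minus strand), *Gdf15* (ENSMUSG00000038508, chr8:70629393-70632456, minus strand), *Angptl4* (ENSMUSG00000002289, chr17:33773750-33781830, minus strand) and *Fetub* (ENSMUSG00000022871, chr16:22918334-22939778, plus strand) overlap no other annotated gene. *Ahsg* and *Fetub* are neighbours in the same orientation, with 18884 bases between them.

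Promoters were taken from RefSeq (GRCm38.p6) as 300 bases, 250 before and 50 after each annotated start, and 8 of the 9 genes matched with 11 promoters. They were searched on both strands for the E-box CACGTG, bound by factors such as ChREBP and USF, for the C/EBP-ATF element TGATGNAAN, and for 2 copies of AGGNCA with 1 base between, the arrangement that PPAR-RXR pairs bind. Of all 32851 promoters of this length, 7.15% hold the E-box, 3.95% the C/EBP-ATF element and 0.381% the direct repeat. Among the 9 genes, matches were found for *Fgf21*, *Gdf15* and *Angptl8*, which are printed here 5′ to 3′ on the strand of the gene with each match in capitals.
*Fgf21* (chr7:45615441-45615740, minus strand): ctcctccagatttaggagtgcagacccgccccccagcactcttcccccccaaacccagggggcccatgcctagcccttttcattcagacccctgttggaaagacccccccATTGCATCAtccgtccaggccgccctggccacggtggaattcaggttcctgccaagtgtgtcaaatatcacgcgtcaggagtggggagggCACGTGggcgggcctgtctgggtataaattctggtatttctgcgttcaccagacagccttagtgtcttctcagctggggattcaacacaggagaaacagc
*Gdf15*, upstream start (chr8:70632407-70632706, minus strand): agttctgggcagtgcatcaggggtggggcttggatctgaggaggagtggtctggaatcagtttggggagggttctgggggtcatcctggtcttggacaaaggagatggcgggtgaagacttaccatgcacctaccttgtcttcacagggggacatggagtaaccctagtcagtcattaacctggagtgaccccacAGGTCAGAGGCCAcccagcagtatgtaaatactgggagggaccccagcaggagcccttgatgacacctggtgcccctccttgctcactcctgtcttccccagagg
*Gdf15*, downstream start (chr8:70632046-70632345, minus strand): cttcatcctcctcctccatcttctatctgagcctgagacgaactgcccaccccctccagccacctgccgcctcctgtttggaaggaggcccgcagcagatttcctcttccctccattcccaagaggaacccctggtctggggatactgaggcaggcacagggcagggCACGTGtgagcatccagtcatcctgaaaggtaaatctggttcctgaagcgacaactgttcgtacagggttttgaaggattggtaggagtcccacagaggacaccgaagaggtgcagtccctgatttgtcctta
*Angptl8* (chr9:21835260-21835559, plus strand): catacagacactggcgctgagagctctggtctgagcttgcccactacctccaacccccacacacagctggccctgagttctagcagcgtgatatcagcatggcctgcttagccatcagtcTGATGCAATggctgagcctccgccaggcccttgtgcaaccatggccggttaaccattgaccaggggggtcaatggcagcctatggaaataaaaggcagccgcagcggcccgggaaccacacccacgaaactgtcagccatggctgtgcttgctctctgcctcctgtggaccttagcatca
With the transcript start at position +1, the *Fgf21* promoter holds a C/EBP-ATF element starting at position -140 and an E-box at -50, and the *Angptl8* promoter holds a C/EBP-ATF element at -130. In *Gdf15* the upstream promoter holds the direct repeat at -55 and the downstream promoter an E-box at -83. A match describes the sequence and is no evidence that a factor was bound.

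The neighbours *Ahsg* and *Fetub*, whose liver values moved in parallel from library to library in the data below, hold none of the 3 motifs in these windows. The *Ahsg* promoter and that of the upstream *Fetub* start are printed for comparison with those above, in lower case since nothing matched.
*Ahsg* (chr16:22891765-22892064, plus strand): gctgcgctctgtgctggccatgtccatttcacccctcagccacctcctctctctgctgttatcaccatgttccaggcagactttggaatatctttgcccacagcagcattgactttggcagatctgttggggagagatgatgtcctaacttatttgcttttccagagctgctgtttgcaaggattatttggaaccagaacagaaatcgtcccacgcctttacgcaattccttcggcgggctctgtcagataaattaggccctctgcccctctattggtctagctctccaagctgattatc
*Fetub*, first start (chr16:22918132-22918431, plus strand): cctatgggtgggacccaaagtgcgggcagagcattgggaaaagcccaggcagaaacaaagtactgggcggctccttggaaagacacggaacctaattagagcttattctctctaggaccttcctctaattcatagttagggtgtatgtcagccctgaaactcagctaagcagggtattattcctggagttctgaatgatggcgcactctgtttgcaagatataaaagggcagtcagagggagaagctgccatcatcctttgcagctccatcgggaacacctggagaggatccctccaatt
Both are 49.7% G and C, below the median of 52.7% over all promoters. A downstream *Fetub* start, not printed, has a promoter of 54.3% G and C with none of the motifs, while the *Tsku* promoters are 69% and that of *Kcp* is 68% G and C, above the upper quartile of 61.7%.

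In control mice, the 9 RNAs were liver RNAs with 1 exception, *Angptl4*, which measured higher in eWAT as deposited. All 9 were called between liver and eWAT and between liver and muscle. The share of all 12637 tested genes called was 69.4% between liver and eWAT, 50.1% between liver and muscle and 54.9% between eWAT and muscle. A call between tissues is thus common here, but less so in the direction of liver. Against eWAT, 917 genes were called higher and 7851 lower in liver, and against muscle 1893 higher and 4436 lower. The median log2 difference of all genes was -1.36 for liver minus eWAT, -0.52 for liver minus muscle and 0.93 for eWAT minus muscle. The differences given next are to be read against that median. With median-ratio scaling, 2621 of 12383 genes were called higher in liver than in eWAT and 2934 higher than in muscle.

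The fetuins were the most abundant and the most liver-restricted of the 9. Mean *Ahsg* in CON liver was 919 ± 590 FPKM (SD, n = 3), against 7.26 ± 3.29 in eWAT and 0.521 ± 0.561 in muscle. The log2 difference of liver minus eWAT was 6.69 (SE 0.65, limma adjusted p = 1.01e-05), and that of liver minus muscle 9.67 (SE 0.65, adjusted p = 2.17e-06). *Fetub* was similar, with 350.1 ± 205 FPKM in CON liver, 1.51 ± 0.901 in eWAT and 0.188 ± 0.153 in muscle, and a log2 difference of 7.31 (SE 0.57, limma adjusted p = 2.33e-06) between liver and eWAT.

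*Angptl8* reached a level like that of *Fetub* in CON liver, at 345 ± 68.1 (SD, n = 3), and it measured 22.9 ± 13.4 in eWAT and 0.321 ± 0.0650 in muscle. *Angptl4* in CON mice measured 117 ± 46.5 FPKM in eWAT, 37.3 ± 0.507 in liver and 0.887 ± 0.404 in muscle. Its log2 difference of liver minus eWAT was -1.57 (SE 0.30, limma adjusted p = 0.000891), near the median of all genes in that contrast. With median-ratio scaling of the libraries it was 0.08 (adjusted p = 0.825), and with mitochondrially encoded genes left out -0.46 (adjusted p = 0.394), so its higher level in eWAT held only on the deposited scale. *Angptl4* in eWAT against muscle was called at 6.38 (SE 0.30, limma adjusted p = 3.61e-07).

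*Tsku*, *Gdf15* and *Fgf21* formed the next level in CON liver. *Tsku* measured 36.9 ± 11.3 FPKM (SD, n = 3) in liver, 3.16 ± 0.433 in eWAT and 0.596 ± 0.0366 in muscle. *Gdf15* measured 19.2 ± 2.37 FPKM in liver, 0.954 ± 0.303 in eWAT and 0.183 ± 0.0927 in muscle, and *Fgf21* measured 7.66 ± 3.06, 0.246 ± 0.151 and 0.0627 ± 0.109. *Fgf21* rested on 44 to 122 fragments in a CON liver library, on 2 to 6 in eWAT and on 0 to 2 in muscle.

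*Kcp* and *Angptl6* were low in every tissue, with 4.04 ± 1.94 and 4.27 ± 1.19 FPKM (SD, n = 3) in CON liver. They were also the 2 genes with the smallest differences between liver and muscle, at 2.08 (SE 0.26, limma adjusted p = 9.31e-05) for *Kcp* and 1.07 (SE 0.30, adjusted p = 0.00980) for *Angptl6*. Without CON72L, CON16M or CON71M the call of *Angptl6* was lost (0.85 to 0.95). It was also lost with a pseudocount of 1 and in the HSD libraries (0.50). Between eWAT and muscle 6 of 9 genes were called. With median-ratio scaling 4 of 9 were, where 38.0% of all genes were, as *Tsku* (0.93), *Gdf15* (0.53) and *Fetub* (0.84) lost the call and *Angptl6* (-1.08) gained one. With a pseudocount of 1, 4 of 9 were called, without *Gdf15* and *Fetub*, and the same 2 lost the call without CON16W. *Fetub* also lost it without CON71W or any 1 of the CON muscle libraries. *Kcp*, *Fgf21* and *Angptl6* were not called between eWAT and muscle in the first fit, at 0.26, 0.41 and -0.42 (limma adjusted p of 0.393, 0.202 and 0.230). *Fgf21* rested on 2 to 6 fragments in CON eWAT and 0 to 2 in CON muscle. It passed the filter in this fit only through its liver values, so its difference says little.

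In the order of CON liver levels, the ranges of *Ahsg*, *Fetub* and *Angptl8* overlapped with each other, as did those of *Angptl4* (37.0 to 37.9 FPKM) and *Tsku* (24.4 to 46.2 FPKM). *Gdf15*, at 17.0 to 21.7 FPKM, lay apart from the genes above and below it. *Fgf21* (5.06 to 11.0 FPKM), *Angptl6* (3.32 to 5.60) and *Kcp* (2.41 to 6.19) overlapped again.

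**Figure D1:**
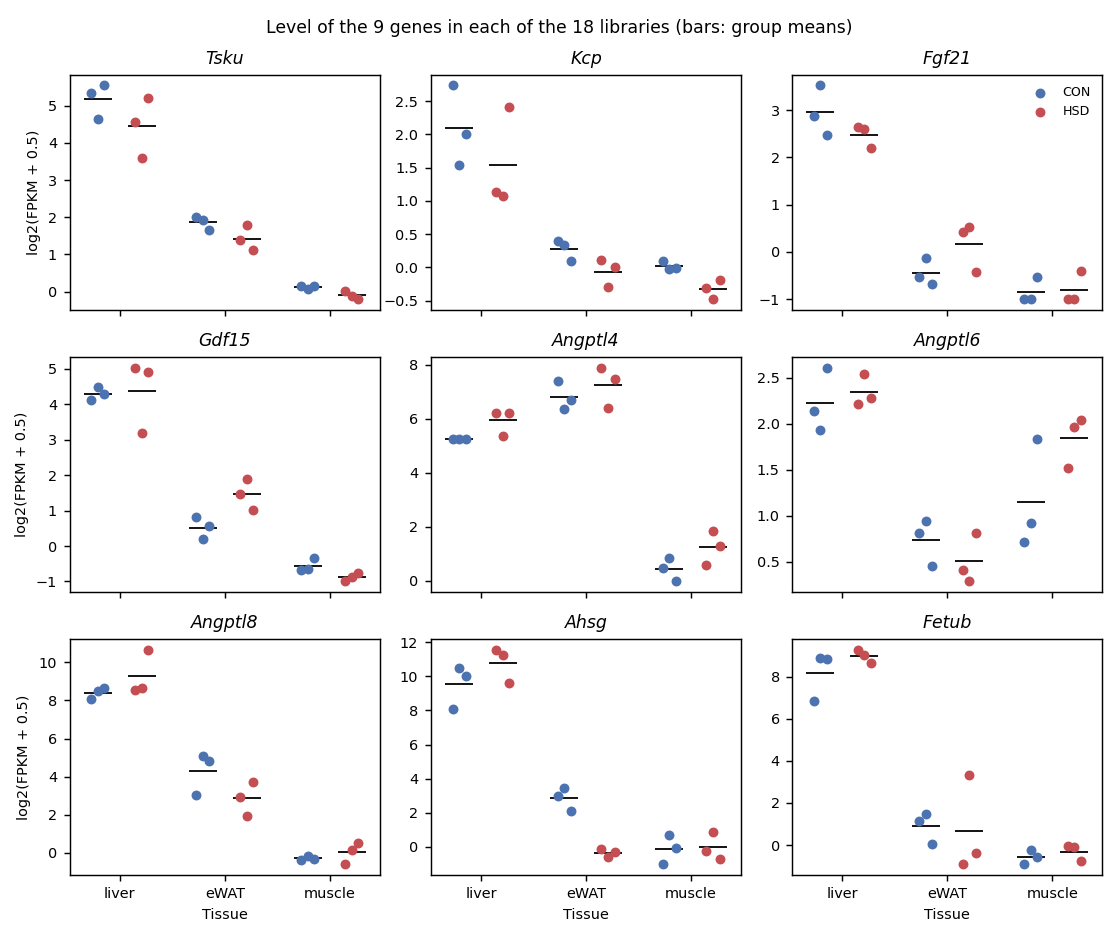
Level of each of the 9 genes in all 18 libraries as log2(FPKM + 0.5), by tissue and diet, with CON in blue, HSD in red, 1 point for each library and black bars for the mean of 3. Each gene has its own vertical axis. All genes but Angptl4 had their highest CON mean in liver, and the widest gap between diets is that of Ahsg in eWAT, where the CON mean was 7.26 and the HSD mean 0.287 FPKM.

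In liver, none of the 9 genes was called between HSD and CON mice over all 6 libraries, where 0% of 10317 genes were called by limma, also with voom on recovered fragments, and 592 had an unadjusted p under 0.05. The limma adjusted p of the 9 genes was 0.764 or more. *Angptl4* was the only member whose HSD libraries all lay above the CON libraries, as in 8.62% of all genes, and no member lay wholly below, against 3.47% of all genes. The median log2 difference of all genes was 0.13.

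*Tsku*, which encodes the small leucine-rich proteoglycan tsukushi, measured 40.0, 24.4 and 46.2 FPKM in CON14L, CON16L and CON72L and 22.9, 11.7 and 36.6 FPKM in HS2L, HS4L and HS5L. The HSD mean was 0.643 times the CON mean, but HS5L lay within the CON range and CON16L within the HSD range. Its log2 difference was -0.72 (SE 0.48, 95% interval -1.85 to 0.41, limma adjusted p = 0.764). It was -0.29 without HS4L and -1.10 without HS5L. Without CON16L and HS5L, the 2 libraries outside the study's tables, it was -1.37 (SE 0.44, limma adjusted p = 0.0932) with no overlap between 2 libraries of each diet.

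*Kcp*, which encodes a secreted enhancer of BMP signalling (kielin/chordin-like protein), measured 6.19, 2.41 and 3.52 FPKM in the CON libraries and 1.71, 1.61 and 4.81 FPKM in the HSD libraries. Its pattern was like that of *Tsku*, with HS5L high among the HSD libraries and CON16L low among the controls. HSD minus CON was -0.55 on the log2 scale (SE 0.45, limma adjusted p = 0.764) over all libraries and -1.26 (SE 0.31, limma adjusted p = 0.0637) over the libraries of the study's tables. It was -0.23 without CON14L, -0.35 without HS2L and -0.32 without HS4L, and -0.83 without CON16L and -0.98 without HS5L. Among 9970 genes over the libraries of the study's tables, 0.351% were called, 45.3% lay wholly above and 19.3% wholly below, and with 2 libraries of each diet *Tsku* and *Kcp* were below while *Angptl4*, *Ahsg* and *Fetub* were above.

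*Fgf21* measured 6.89, 11.0 and 5.06 FPKM in the CON livers and 5.75, 5.57 and 4.06 in the HSD livers. CON16L was the highest, at 1.60 times the next library, and the other 5 libraries lay between 4.06 and 6.89 FPKM. The log2 difference was -0.48 (SE 0.32, limma adjusted p = 0.764). It was -0.73 without CON72L, -0.20 without CON16L, and -0.06 (SE 0.30) without both CON16L and HS5L.

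*Gdf15* measured 17.0, 21.7 and 18.8 FPKM in the CON livers and 32.1, 8.53 and 29.4 in the HSD livers. The HSD livers were spread on both sides of the narrow CON range, with 2 above it and HS4L below it. Its log2 difference was 0.08 (SE 0.52, 95% interval -1.13 to 1.28, limma adjusted p = 0.969), and it changed sign with the scaling and with the libraries used.

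*Angptl4* measured 37.0, 37.0 and 37.9 FPKM in the CON livers and 73.9, 40.7 and 74.1 FPKM in the HSD livers. On the deposited FPKM scale, the CON livers differed by 1.02 times from lowest to highest, the tightest of the 9 genes. HS2L and HS5L lay at about the same level above the controls, and HS4L lay just above them. HSD minus CON was 0.69 on the log2 scale (SE 0.36, 95% interval -0.16 to 1.54, limma adjusted p = 0.764). With mitochondrially encoded genes left out it was 0.15 (SE 0.54, limma adjusted p = 0.940). Whether the groups still separate on that scale was not computed.

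*Angptl6*, whose product is also called angiopoietin-related growth factor, measured 3.89, 3.32 and 5.60 FPKM in CON and 4.12, 5.30 and 4.36 FPKM in HSD livers. All HSD values lay within the CON range, and the log2 difference was 0.12 (SE 0.25, 95% interval -0.48 to 0.71, limma adjusted p = 0.895).

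*Angptl8* measured 272, 355 and 407 FPKM in the CON livers and 367, 401 and 1602 FPKM in the HSD livers. HS5L alone set the difference between the group means, at 3.94 times the next highest library, and the other HSD livers lay within the CON range. The log2 difference was 0.86 (SE 0.64, limma adjusted p = 0.764) over all libraries and 0.17 without HS5L. Of 10317 genes, 1878 were highest in HS5L and 3 of these by at least this ratio. The other 2, chosen after their values were seen, were *Pdgfrl* at 2.10 FPKM and *Gm11084* at 8.48 FPKM in HS5L.

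*Ahsg* measured 276, 1436 and 1045 FPKM in the CON livers and 3006, 2399 and 790.0 FPKM in the HSD livers. HS2L and HS4L lay above every control, while HS5L lay between CON14L and CON72L. Its log2 difference was 1.26 (SE 0.80, 95% interval -0.60 to 3.12, limma adjusted p = 0.764) over all libraries and 2.32 (SE 0.87, limma adjusted p = 0.117) over the libraries of the study's tables. Without CON14L alone it was 0.54 (SE 0.64). The spread among the controls was 5.19 times.

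*Fetub* measured 113, 477 and 460.1 FPKM in the CON livers and 622, 523 and 409 FPKM in the HSD livers. CON14L was the low library, and the other 5 spanned 409 to 622 FPKM. HSD minus CON was 0.80 on the log2 scale (SE 0.64, limma adjusted p = 0.764) over all libraries and 0.12 without CON14L.

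**Figure D2:**
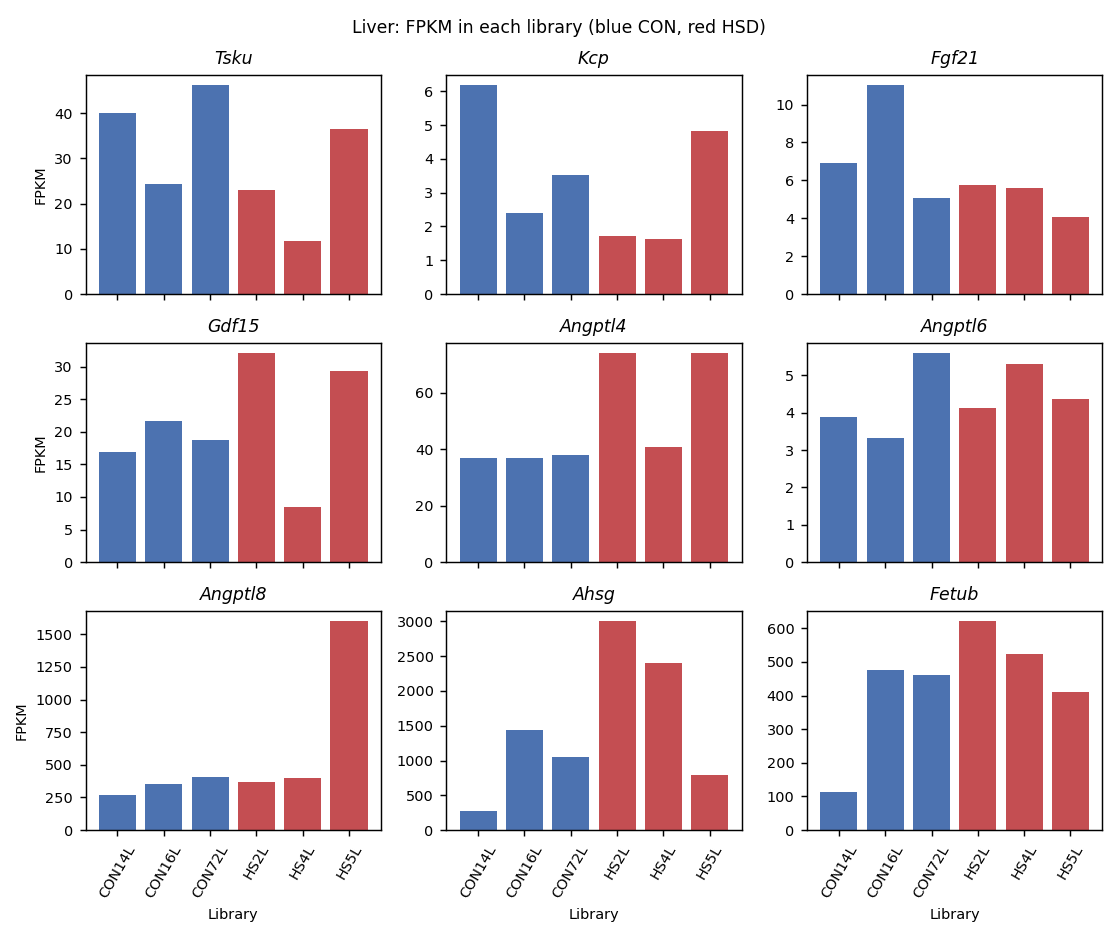
FPKM of the 9 genes in each of the 6 liver libraries, CON in blue and HSD in red, with 1 bar for each library and a linear axis from 0 in each panel. Angptl4 is the only gene whose HSD bars all exceed its CON bars, and the bar of Angptl8 in HS5L, at 1602 FPKM, stands far above the others.

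The livers with the lowest *Ahsg* and *Fetub* were those with the largest mitochondrial share and the lowest hepatocyte markers, CON14L and HS5L. With the mitochondrial share as a covariate beside diet, the log2 difference was 0.20 (SE 0.25) for *Ahsg*, 0.14 (SE 0.40) for *Fetub*, -0.28 (SE 0.37) for *Tsku* and 0.08 (SE 0.17) for *Kcp*, against 1.26, 0.80, -0.72 and -0.55 without it. Other differences grew with the covariate, to 1.29 (SE 0.57) for *Angptl8*, -0.71 (SE 0.29) for *Fgf21*, 0.81 (SE 0.29) for *Angptl4* and 0.21 (SE 0.55) for *Gdf15*, and that of *Angptl6* was 0.11 (SE 0.25). With mitochondrially encoded genes left out instead, *Tsku* was -1.27 (SE 0.73), *Kcp* -1.10 (SE 0.83) and *Fgf21* -1.04 (SE 0.46), farther from 0 than in the first fit. There *Ahsg* was 0.71 (SE 0.34), *Fetub* 0.25 (SE 0.30), *Angptl4* 0.15 (SE 0.54) and *Angptl8* 0.31 (SE 0.75), all nearer to 0. The median of all genes was -0.37. For each 1000 FPKM of 19 hepatocyte markers (the list without *Cyp2e1*, which eWAT also expresses), *Ahsg* measured 10.8, 12.8 and 11.4 FPKM in CON14L, CON16L and CON72L and 25.4, 18.7 and 14.0 FPKM in HS2L, HS4L and HS5L. On that scale, which was chosen after the values were seen, every HSD liver lay above every CON liver for *Ahsg*, with HS5L at 14.0 next to CON16L at 12.8. The share of all genes that separate on this scale was not computed. On the FPKM scale 8.62% of all genes lay wholly above and *Ahsg* did not. For *Fetub* the same ratio was 4.42, 4.24 and 5.02 in CON and 5.26, 4.08 and 7.25 in HSD livers, and the groups overlapped.

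**Figure D3:**
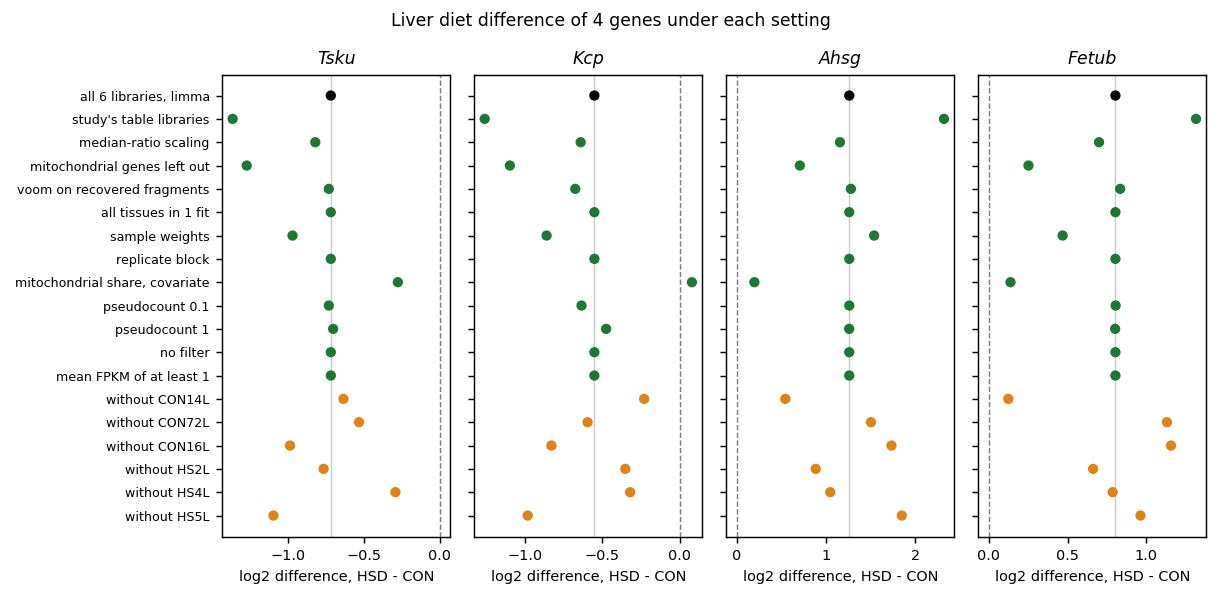
Log2 difference of HSD minus CON in liver for Tsku, Kcp, Ahsg and Fetub under each setting, with the fit of all 6 libraries in black, other settings in green and fits without 1 library in orange, a dashed line at 0 and a grey line at the value of the first fit. Tsku stayed between -1.37 and -0.28, and the values of Kcp, Ahsg and Fetub came nearest to 0 or crossed it with the mitochondrial share as a covariate or without CON14L.

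In eWAT, none of the 9 genes was called either, among 13740 tested genes of which 0% were called by limma, also with voom, and 2298 had an unadjusted p under 0.05. Over the libraries of the study's tables, 0% of 13844 genes were called. *Gdf15* lay wholly above the controls, as did 16.2% of all genes, and *Ahsg* wholly below, as did 12.4%. The median log2 difference of all genes was 0.08.

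*Ahsg* measured 7.49, 10.4 and 3.86 FPKM in CON16W, CON71W and CON72W and 0.400, 0.148 and 0.313 FPKM in HS2W, HS3W and HS5W. The groups were far apart, with 141 to 347 fragments in a CON library and 4 to 12 in an HSD library. The HSD mean was 0.0396 times the CON mean and the log2 difference was -3.22 (SE 0.36, 95% interval -4.10 to -2.33, limma adjusted p = 0.0830). That adjusted p was the smallest of the 9 genes in any tissue over all libraries. All HSD values lay below the pseudocount of 0.5, so the size of the difference depends on it. The difference was -4.20 (SE 0.45) with a pseudocount of 0.1, -2.60 (SE 0.32) with 1 and -4.52 (SE 1.54) with voom.

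The eWAT libraries with more *Ahsg* were those with more of the other hepatocyte RNAs. The 19 hepatocyte markers summed to 347, 564 and 190.4 FPKM in the CON and to 26.1, 12.6 and 14.97 FPKM in the HSD libraries, with 2 of the 19 at 0 in HS5W and none in the other eWAT libraries. *Alb* measured 53.9 to 167 FPKM in CON and 3.30 to 7.85 in HSD eWAT. Of the 20 hepatocyte markers, 19 had a negative log2 difference with an unadjusted p under 0.05, none was called, and the median was -3.05 against 0.08 for all genes. For each 1000 FPKM of these 19 markers, *Ahsg* measured 21.6, 18.5 and 20.3 FPKM in CON and 15.3, 11.7 and 20.9 FPKM in HSD eWAT, so its ratio to the other hepatocyte genes overlapped between diets. The CON eWAT mean of *Ahsg* was 0.790% of its CON liver mean, and that of the 19 markers 0.479%.

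*Fetub* measured 1.72, 2.29 and 0.521 FPKM in the CON and 0.0373, 9.45 and 0.273 FPKM in the HSD eWAT libraries. HS3W, the library with epididymal markers, was the highest of the 6, with 228 fragments where HS2W had 1. The log2 difference was -0.20 (SE 1.16, limma adjusted p = 0.929), and -1.52 without HS3W. In HS3W the ratio of *Fetub* to 1000 FPKM of the hepatocyte markers was 749, against 1.43 to 18.2 in the other eWAT libraries, so the 2 fetuins did not move together there.

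**Figure D4:**
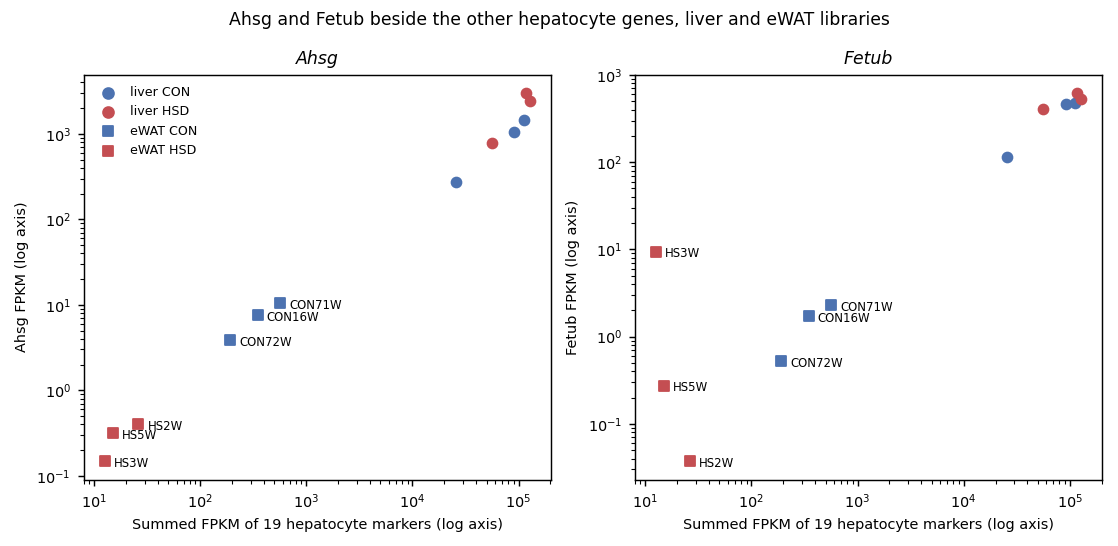
FPKM of Ahsg (left) and Fetub (right) against the summed FPKM of 19 hepatocyte markers on log axes in the 6 liver (circles) and 6 eWAT (squares) libraries, CON in blue and HSD in red. Ahsg is higher where the marker sum is higher, from HSD eWAT over CON eWAT to liver, and Fetub in HS3W, at 9.45 FPKM, lies far from the other eWAT libraries.

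*Gdf15* measured 1.25, 0.641 and 0.974 FPKM in the CON and 2.26, 3.20 and 1.53 FPKM in the HSD eWAT libraries. Every HSD library exceeded every control, with HS3W the highest, on 18 to 37 and 37 to 73 fragments. Its log2 difference was 0.94 (SE 0.29, 95% interval 0.24 to 1.64, limma adjusted p = 0.217), and 0.72 without HS3W.

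*Fgf21* measured 0.197, 0.416 and 0.126 FPKM in the CON and 0.848, 0.940 and 0.241 FPKM in the HSD eWAT libraries. HS2W and HS3W lay above the controls on 11 fragments each, and HS5W lay among them. Its mean was below the filter over all libraries, and with no filter its log2 difference was 0.62 (SE 0.31, limma adjusted p = 0.417). Without HS5W it passed the filter only through HS2W and HS3W.

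*Angptl8* measured 7.71, 33.2 and 27.9 FPKM in the CON and 7.12, 3.38 and 12.6 FPKM in the HSD eWAT libraries. CON16W lay within the HSD range and the other controls above it. HSD minus CON was -1.45 on the log2 scale (SE 0.68, limma adjusted p = 0.338), opposite in sign to that in liver.

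*Angptl4*, the most abundant of the 9 genes in eWAT, measured 169.5, 80.5 and 102 FPKM in the CON and 237, 82.7 and 178 FPKM in the HSD libraries. The groups overlapped, with HS3W near the lowest control, and the log2 difference was 0.44 (SE 0.46, limma adjusted p = 0.603). It was 0.12 without HS2W, 0.21 without CON71W, 0.74 without CON16W and 0.88 without HS3W. *Angptl6* ranged from 0.874 to 1.42 FPKM in CON and from 0.720 to 1.26 in HSD eWAT, at a log2 difference of -0.23 (SE 0.24, adjusted p = 0.599).

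*Tsku* measured 3.52, 3.29 and 2.68 FPKM in the CON and 2.11, 2.93 and 1.65 FPKM in the HSD eWAT libraries, with only HS3W inside the CON range. The log2 difference was -0.44 (SE 0.21, limma adjusted p = 0.338). *Kcp* ranged from 0.566 to 0.812 FPKM in CON and from 0.314 to 0.576 in HSD eWAT, at -0.34 (SE 0.26, limma adjusted p = 0.514). Without 1 library these were -0.28 for *Tsku* (HS5W left out) and -0.22 for *Kcp* (HS3W left out).

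**Figure D5:**
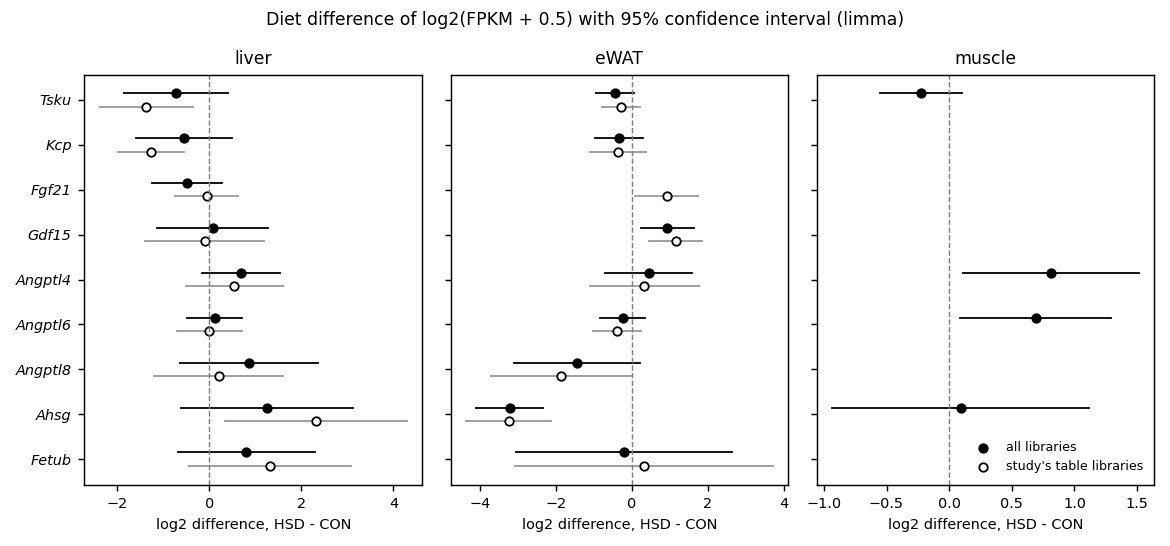
Log2 difference of HSD minus CON for each gene with its 95% confidence interval by limma, in liver, eWAT and muscle, with filled points for all libraries and open points for the libraries of the study's tables; genes below the filter are left out and the horizontal scales differ. The interval of Ahsg in eWAT, -4.10 to -2.33, is the one farthest from 0, and every liver interval over all libraries spans 0.

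In muscle, 4 of the 9 genes passed the filter and none was called, where 0.323% of 10834 genes were called, 11 higher and 24 lower. With the replicate block, 15 genes were called higher and 39 lower, and with voom on recovered fragments 13 and 50, again with none of the 9. *Tsku* lay wholly below the controls, as did 15.6% of all genes, and no tested member wholly above, against 6.72%. The median log2 difference of all genes was -0.06.

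*Angptl4* measured 0.895, 1.29 and 0.480 FPKM in CON16M, CON71M and CON72M and 0.997, 3.11 and 1.96 FPKM in HS2M, HS3M and HS5M. HS2M lay within the CON range and the other HSD libraries above it, at a log2 difference of 0.81 (SE 0.31, limma adjusted p = 0.241) that was 0.51 without HS3M. *Angptl6* measured 1.14, 1.39 and 3.05 FPKM in the CON and 2.37, 3.41 and 3.62 FPKM in the HSD libraries, with CON72M among the HSD values and a log2 difference of 0.69 (SE 0.27, limma adjusted p = 0.250).

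*Tsku* measured 0.619, 0.554 and 0.616 FPKM in the CON and 0.517, 0.429 and 0.370 FPKM in the HSD muscle libraries. The groups did not overlap, on 14 to 25 fragments a library, and the log2 difference was -0.23 (SE 0.15, limma adjusted p = 0.475). *Ahsg* ranged from 0 to 1.11 FPKM in CON and from 0.110 to 1.30 in HSD muscle, at a difference of 0.09 (SE 0.46, adjusted p = 0.945).

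The other 5 genes lay below the filter in muscle. *Kcp* measured 0.479 to 0.564 FPKM in CON and 0.218 to 0.374 in HSD muscle without overlap, on 43 to 58 and 22 to 36 fragments. With no filter its log2 difference was -0.34 (SE 0.11, limma adjusted p = 0.246). *Gdf15* was at 0.122 to 0.290 FPKM in CON and 0 to 0.0871 in HSD muscle, on 6 fragments or fewer, and with no filter its difference was -0.33 (SE 0.11, limma adjusted p = 0.268). *Fgf21*, *Angptl8* and *Fetub* rested on at most 3, 10 and 12 fragments a library.

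The difference of the diet effect between liver and eWAT was called for 1 of the 9 genes, *Ahsg*, and for 0.758% of 13067 genes. It was 4.47 (SE 0.90, 95% interval 2.55 to 6.40, limma adjusted p = 0.0326), with 1.26 in liver and -3.22 in eWAT. The call did not hold with a pseudocount of 0.1 (5.46, adjusted p = 0.0603), with median-ratio scaling (3.86, adjusted p = 0.0716), or without CON14L (3.76), HS2L (4.10), HS4L (4.26), CON16W (4.40), CON71W (4.18), HS2W (4.58), HS3W (4.34) or CON72M (4.47). The hepatocyte markers moved the same way as *Ahsg* in both tissues, with a median of 0.78 in liver and -3.05 in eWAT, and their part in the difference was not tested.

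The corresponding differences of *Angptl8* and *Fgf21* were 2.31 (SE 0.84, limma adjusted p = 0.244) and -1.10 (SE 0.42, limma adjusted p = 0.270) and were not called. *Fgf21* lay below the filter in eWAT and in muscle and passed it in this fit only through its liver values. Over the libraries of the study's tables, 2 of the 9 genes were called between liver and eWAT, *Ahsg* and *Tsku*, where 18.7% of all genes were, and *Tsku* was also called between liver and muscle, where 9.78% of all genes were. Over all libraries, none of the 9 was called between liver and muscle, where 0.0612% of genes were called, or between eWAT and muscle, where 0% were. These contrasts share the libraries of a tissue.

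Other genes of the same pathways are given from lists chosen by function. Of 18 other hepatokines tested in liver, 17 had a positive log2 difference and none was called, with a median of 0.51 against 0.13 for all genes. In the same fit 19 of the 20 hepatocyte markers were positive, with a median of 0.78. The share of all genes with a positive difference was not computed. The 3 farthest from 0 were *Igfbp2* at 1.84 (SE 0.88) and *Igfbp1* at 1.39 (SE 0.61), which bind insulin-like growth factors, and *Selenop*, the plasma selenium carrier, at 1.79 (SE 1.12), each with a limma adjusted p of 0.764. In eWAT the median of 14 was -0.41, with *Hamp* (hepcidin) at -2.64, the acute phase gene *Orm1* at -1.98 and *Igf1* at -1.11. Each lay wholly below the controls, as did 12.4% of all genes, and none was called. The hepatocyte markers had a median of -3.05 in the same libraries, and their part in these differences was not tested.

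Of the other angiopoietin-like genes, *Angptl2*, an inflammatory member of the family, fell in HSD muscle. It measured 9.04 to 12.1 FPKM in CON and 3.51 to 5.32 FPKM in HSD muscle, at a log2 difference of -1.18 (SE 0.16, limma adjusted p = 0.0193). In eWAT, *Angptl2* at -0.90 and *Angptl1* at -0.67 lay wholly below the controls, as did 12.4% of all genes. Their limma adjusted p were 0.297 and 0.249.

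None of the receptors and partners of these hepatokines was called in a tissue, out of 17 tested in liver, 21 in eWAT and 16 in muscle, with medians of -0.04, 0.03 and -0.02. In liver the farthest from 0 were *Lpl* (lipoprotein lipase) at -1.05 (SE 1.22, limma adjusted p = 0.803), *Klb* at 0.94 (SE 0.27) and the receptor *Fgfr1* at -0.72 (SE 0.30). The latter 2 had a limma adjusted p of 0.764. *Klb* lay wholly above the controls, as did 8.62% of all genes. *Lpl* measured 1.08 and 1.39 FPKM in 2 of the CON livers and 46.8 FPKM in the other. *Gfral*, the receptor of *Gdf15*, was listed at 0 in all 18 libraries.

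Lists of genes that are known to respond to the same signals as the members held no call in any tissue over all libraries. Over the libraries of the study's tables, *Cyp4a14* (3.58, limma adjusted p = 0.0365) and *Thrsp* (-3.84, adjusted p = 0.0131) were called in liver. In liver the median log2 difference was 0.66 for 16 PPAR alpha targets, with *Cyp4a14* at 1.99 and *Cyp4a10* at 1.92, and -0.80 for 11 lipogenic genes induced by insulin and carbohydrate, with *Thrsp* at -2.77, *Fasn* at -1.59 and *Pklr* at -1.33. In eWAT it was 0.11 for 14 PPAR alpha targets, with *Fabp1* at -3.74, and -1.31 for 11 lipogenic genes, with *Fasn* at -3.13 and *Acaca* at -1.76. The integrated stress response, which controls *Fgf21* and *Gdf15* in many cells, had medians of 0.13 in liver, -0.15 in eWAT and 0.20 in muscle, where *Ppp1r15a* was farthest from 0 at 0.91 (SE 0.13, limma adjusted p = 0.0213), below the fold required for a call. In muscle the median was -0.12 for PPAR alpha targets and -0.43 for lipogenic genes, against -0.06 for all genes, and that of the other hepatokines was -0.11.

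Macrophage markers had medians of -0.75 in liver, -0.82 in eWAT and -0.61 in muscle. Adipocyte markers had a median of -0.49 in eWAT, and hepatocyte markers of -0.18 in muscle, and blood cell markers of -1.85 in liver and -1.26 in eWAT. Skeletal muscle markers had a median of -2.90 in liver, where CON16L held nearly all of their FPKM, and epididymal markers of 3.74 in eWAT, where HS3W did.

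By the correlation of log2(FPKM + 0.5) over the 6 liver libraries, the 3 genes most like each member out of 10317 were, for *Ahsg*, *Pla2g12b*, *Itih2* and *Ak3* and, for *Fetub*, *Pex16*, *Kng1* and *Arg1*, with r of 0.996 or more. *Itih2*, *Kng1* and *Arg1* are known as hepatocyte genes. For *Tsku* they were *Trim21*, *Zfp276* and *Luc7l2*, for *Kcp* *Dazap1* and *Nsd3*, for *Angptl4* *Usf2*, *Dhx36* and *Epha2*, and for *Angptl8* *2900026A02Rik*, *Gja4* and *Smad3*. For *Fgf21* they were *Map3k20*, *Adprh* and *Tuba1a*, for *Gdf15* *Tipin*, *Hnrnpd* and *Dalrd3*, and for *Angptl6* *Olfr1034*, *Dnajc17* and *Nufip1*, with the lowest r, 0.921 to 0.933. These points share their libraries, so the order describes likeness over 6 samples and nothing more.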

How the data were processed

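Total RNA of liver, eWAT and quadriceps was depleted of ribosomal RNA and sequenced as stranded paired-end libraries. The authors deposited 1 table of FPKM for the whole series. The study's methods name hisat2 with mm10 for the alignment and cuffdiff with Ensembl annotation for the gene values. The processing notes of the labels list HTSeq, so which program gave the deposited values is not settled here. The study also mentions normalized counts after a batch-effect correction. FPKM is a share of each library, so an abundant class such as mitochondrially encoded RNA lowers the other values. Whole fragments were recovered from the FPKM with GENCODE M21 exon lengths for 18359 of 18822 genes above 0, and for 463 at another length. With the exon lengths the tolerance was 0.05 fragments, and wider in proportion to the count for high counts. The check therefore says little for the highest counts.

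Libraries were grouped by tissue and diet from the labels. Differences of log2(FPKM + 0.5) were fitted with limma 3.58.1 in R 4.3.3, leaving out genes whose mean in the fit was under 0.5 FPKM, with Benjamini-Hochberg adjustment over all of them, after tests on simulated data. Diet was fitted within a tissue, tissue levels over the 9 CON libraries, and the difference of the diet effect over all 18. The study's methods name a count test, which FPKM do not allow as a main test. Alternatives were the libraries of the study's tables, median-ratio scaling, mitochondrially encoded genes left out, voom on the recovered fragments, sample weights, other pseudocounts and filters, the mitochondrial share as a covariate, a replicate block and each library left out.

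Replicate numbers were checked for pairing by the correlation of deviations from the group means. In muscle the 3 correlations were 0.383, 0.177 and 0.184, against at most -0.0923, -0.0792 and 0.180 with another number. By the library names the numbers join different mice, so this is no pairing of animals, and the replicate block changed no call of the 9 genes. CON16, CON72, HS2 and HS5 appear in all 3 tissues, and CON71 and HS3 in eWAT and muscle. The fits across tissues took these libraries as independent. With that name as a random block, the *Ahsg* difference between liver and eWAT was 4.46 (SE 0.90, limma adjusted p = 0.0316). Named genes were the 9 genes, those of the function lists that were called or farthest from 0 (at most 3 a list and tissue), and the 3 genes most like each in liver. Some genes that this rule names are not reported here. The genes and lists were chosen with earlier results of these data known. The labels do not say that replicates came from separate animals, though their library names carry different numbers, so p-values measure only the spread between these samples.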

Additional observations from a re-analysis of the deposited data

Results flagged for a closer look

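The diet effect on *Ahsg* differed between liver and eWAT by 4.47 on the log2 scale (SE 0.90, limma adjusted p = 0.0326), with 1.26 in liver and -3.22 in eWAT, which passed the test of the difference itself. The adjusted p ranged from 0.00292 to 0.112 over the alternatives.

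The diet effect on *Gdf15* in eWAT and muscle differed by 1.26 (SE 0.52, limma adjusted p = 0.560). Every HSD eWAT library lay above the controls and every HSD muscle library below them, on 6 fragments or fewer in muscle, but the test of the difference did not pass the threshold. Of all tested genes, 16.2% lay wholly above in eWAT and 15.6% wholly below in muscle. The muscle mean of *Gdf15* was below the filter, and the gene entered this fit on its mean over all 18 libraries, where liver was highest.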

How the results depend on the processing

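Over 54 results of single genes and 958 alternative values, 901 kept their direction and side of the threshold and 22 changed sign. Among values that kept their sign, 29 lost a call and 6 gained one. Of the 958 values, 355 were diet differences. No member was called there in the first fit, so keeping the side of the threshold says little. *Ahsg* in liver kept its direction while ranging from 0.20 to 2.32. Another 459 values were differences between tissues. The other 144 came from the 6 differences of the diet effect with an unadjusted limma p under 0.05. Signs changed mostly for values near 0. In liver, *Gdf15* was -0.10 over the libraries of the study's tables, -0.024 with median-ratio scaling and -0.47 without mitochondrially encoded genes. *Angptl6* was -0.40 without mitochondrially encoded genes, where the median of all genes was -0.37, and -0.36 with sample weights. *Kcp* was 0.080 with the mitochondrial share as a covariate. With sample weights *Fgf21* was 0.13 and *Angptl8* -0.12, and 1 of the 9 genes, *Ahsg* at 1.54, was called in liver, where 8.98% of all genes were. That fit did not converge and gave HS2L a weight of 35.4, against 0.165 to 0.428 for 4 other livers. *Fetub* in eWAT was 0.32 over the libraries of the study's tables and 0.0076 with a pseudocount of 1. *Ahsg* in muscle was -0.11 with sample weights. In eWAT 1 of the 9 genes, *Ahsg*, was called with all tissues in 1 fit, where 1.23% of all genes were, and with sample weights, where 1.60% were.

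Between tissues, *Angptl4* in liver against eWAT was 0.082 and *Kcp* in eWAT against muscle -0.26 with median-ratio scaling, and *Ahsg* in eWAT against muscle was -0.32 in HSD libraries. With these changes of sign, *Angptl4* and *Ahsg* also lost their calls. For the diet effect in liver against eWAT, 0 of the 9 genes were called with a pseudocount of 0.1 (0.696% of all genes) or median-ratio scaling (0.341%), and 2 of 9 over the libraries of the study's tables (18.7%), where 1 of 9 was called in liver against muscle (9.78%).

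Without 1 library at a time, the liver difference ranged from -0.25 to 0.67 for *Gdf15* and from -0.030 to 0.31 for *Angptl6*, that of *Fetub* in eWAT from -1.52 to 0.59, and that of *Ahsg* in muscle from -0.35 to 0.43. Of the 9 genes, 0 to 1 were called in eWAT (0% to 1.21% of all genes), where *Ahsg* was called without HS3W, and 0 to 1 for the difference between liver and eWAT (0.282% to 4.15%). With the replicate block, 0 of the 9 genes were called in each tissue. Same-numbered libraries correlated at -0.473, 0.396 and -0.213 in liver and at -0.197, 0.0608 and 0.414 in eWAT. Depth limits *Fgf21*, *Gdf15*, *Angptl8* and *Fetub* in muscle, where each rested on 12 fragments or fewer.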
